A study of Rattus norvegicus with 78 samples.

Results

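The genes described here code for the proteins of the cytosolic ribosome and their close relatives. They were the 50 genes, of 14217 on the array, whose symbol in the array annotation begins with Rpl or Rps and a digit or is Rplp0, Rplp1, Rplp2 or Rpsa, with the Rps6k kinases left out. Where several probesets stood for 1 gene, the brightest over all 78 arrays was taken. The list held 29 large-subunit genes (Rplp0 among them), 13 small-subunit genes, 6 paralogs (Rpl26l1, Rpl39l1, Rpl3l, Rpl7l1, Rps27l and Rps4y2) and 2 pseudogenes (Rpl37-ps2 and Rps4x-ps1).

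The arrays compared adult male rats of the Flinders Sensitive Line (FSL), bred as a genetic model of depression, with rats of the Flinders Resistant Line (FRL), the control line. All animals were bred at the Karolinska Institute and went through a forced swim test before tissue was taken, so FRL rats had that stress too. The prefrontal/frontal cortex (P/FC, the whole frontal lobe) and the hippocampus (HIP) were each profiled in 9 FSL and 12 FRL rats of cohort 1 and in 8 FSL and 10 FRL rats of cohort 2, a later set of animals. No drug or transgene was used, and the lines differ across the genome by selective breeding, so that no difference between them can be tied to 1 allele.

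A ribosome is built of a large subunit, where peptide bonds are formed, and a small subunit, where the messenger RNA is read, and each holds ribosomal RNA and many proteins made in matched amounts. The messenger RNAs of these proteins are short, abundant and mostly begin with a run of pyrimidines, the terminal oligopyrimidine tract, through which mTOR signalling sets their translation. Neurons make ribosomal proteins in the cell body and translate part of them in dendrites and axons.

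The starts of several of these genes are shown because such a tract is the feature by which the family is known and which the choice of genes did not use. The sequences are from RefSeq (build GRCr8), each with 10 bases before the annotated start and 20 from it, and capitals mark the longest run that begins with a C within 10 bases of the start and goes on with at least 4 bases that are each C or T. Rplp0 (chr12:46718371-46718400, minus strand), Rps15 (chr7:10068096-10068125, minus strand), Rpl39 (chrX:121195877-121195906, minus strand) and Rpl27a (chr1:172974563-172974592, plus strand) were called lower in FSL P/FC. Rps23 (chr2:23814507-23814536, plus strand) had the brightest probeset, and Rpl35a (chr11:81235002-81235031, minus strand) had a positive change in both regions. Rpl41 (chr7:1563478-1563507, minus strand) was called lower in FSL P/FC, and Rps3 (chr1:163195757-163195786, minus strand) differed most clearly between the regions. Neither had a tract in this window.
Rplp0: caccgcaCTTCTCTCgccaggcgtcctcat
Rps15: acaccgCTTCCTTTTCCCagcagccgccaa
Rpl39: taatcgcgttCTTCCggcctgtcctttctc
Rpl27a: cttggtgggCTCCTCCCTCTTTCTTTTCTg
Rps23: ccttcctgCCTCTCTTCTCTCTTTCTCTCg
Rpl35a: tcttgCCTTCCTCTTTCCgccatcttggcg
Rpl41: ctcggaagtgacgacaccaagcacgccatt
Rps3: ttcagcggcgcgcggcagcaagatggcggt

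Of the 50 genes, 41 had an entry in the RefSeq promoter table, and 27 of these (65.9%) held a tract on the strand of the gene. Among all 33469 promoters of the table the share was 28.9%, and among 59 promoters of mitochondrial ribosomal protein genes it was 37.3%. Tracts of 7 or more bases stood in 51.2% of the members' promoters, 8.47% of those of the mitochondrial ribosomal proteins and 11.2% of all promoters. A match describes these letters near an annotated start and does not mark a measured start site.

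Intensities are the authors' normalized values on a linear scale, and since the brightness of a probeset also depends on its probes, no gene's level was set against another's. The members' probesets had a median intensity of 1702 over the 78 arrays, against 61.7 for all probesets. They ranged between 2.64 for Rpl3l and 4281 for Rps23. In each region 43 of the 50 genes passed the study's filter, an intensity above 30 in 50% or more of a line's arrays, for both lines. The chosen probesets of Rpl28, Rpl30, Rpl39l1, Rpl3l, Rps13, Rps4x-ps1 and Rps4y2 did not pass. A further 36 probesets were annotated to a ribosomal protein gene together with other symbols, and no gene's change was taken from these. They include bright probesets, which passed, for Rpl28 (mean intensity 2301), Rpl30 (2034) and Rps13 (1376), so the dim probesets of these 3 genes do not stand for their level.

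The median intensity of an array was between 60.8 and 65.9 in P/FC and between 56.8 and 63.0 in HIP. Neuronal, astrocyte and oligodendrocyte markers were present in both regions. Markers of astrocytes (Gfap, Aqp4, Slc1a3, Aldh1l1 and Gja1) differed with line, and 5 of 5 were called lower in FSL P/FC and 4 of 5 in FSL HIP. The 3′ to 5′ signal ratio of the Gapdh control probesets, a measure of RNA integrity on the log2 scale, was 0.74 ± 0.05 in FSL P/FC and 0.83 ± 0.09 in FRL P/FC of cohort 1 (SD, n = 9 and 12, p = 0.00922 by an exact permutation test that was two-sided, 0.0246 after adjustment for 8 tests). In cohort 2 it was 0.82 ± 0.05 in FSL P/FC and 0.92 ± 0.11 in FRL P/FC (SD, n = 8 and 10, exact permutation p = 0.0317, adjusted 0.0601). The Actb ratio was lower in FSL HIP in both cohorts, with adjusted exact permutation p-values of 0.0103 and 0.0244.

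The first comparison asked whether ribosomal protein transcripts differed between FSL and FRL rats in P/FC. With both cohorts weighted equally, 6 of the 43 members were called lower in FSL P/FC (limma, Benjamini-Hochberg adjusted p under 0.05 over 22370 probesets), none was called higher and 37 did not pass. The 6 were Rplp0, Rpl39, Rpl41 and Rpl27a of the large subunit and Rps15 and Rps29 of the small subunit. Their fall was 0.11 to 0.15 on the log2 scale. Across all kept probesets 18.6% were called, 8.86% as lower and 9.76% as higher, and among the 892 probesets with a mean intensity above 1000 it was 35.5%, with 17.2% as lower. The members' share of 14%, all lower, was below the share called in either direction in both sets and lay between the shares called lower, and so their count of calls was not a result about these genes.

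The members' changes lay mostly on the negative side. Of the 43 members, 35 had a negative change in FSL P/FC and 8 a positive one, with a range of -0.20 to 0.10. Positive changes made up 50.7% of all kept probesets and 48.7% of the bright ones. The members' median was -0.06 (-3.80%), against 0.00 for all kept probesets. In bulk tissue, fewer cells of a type and less RNA per cell cannot be told apart. The members were correlated from array to array, so their signs are not separate observations.

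**Figure D1:**
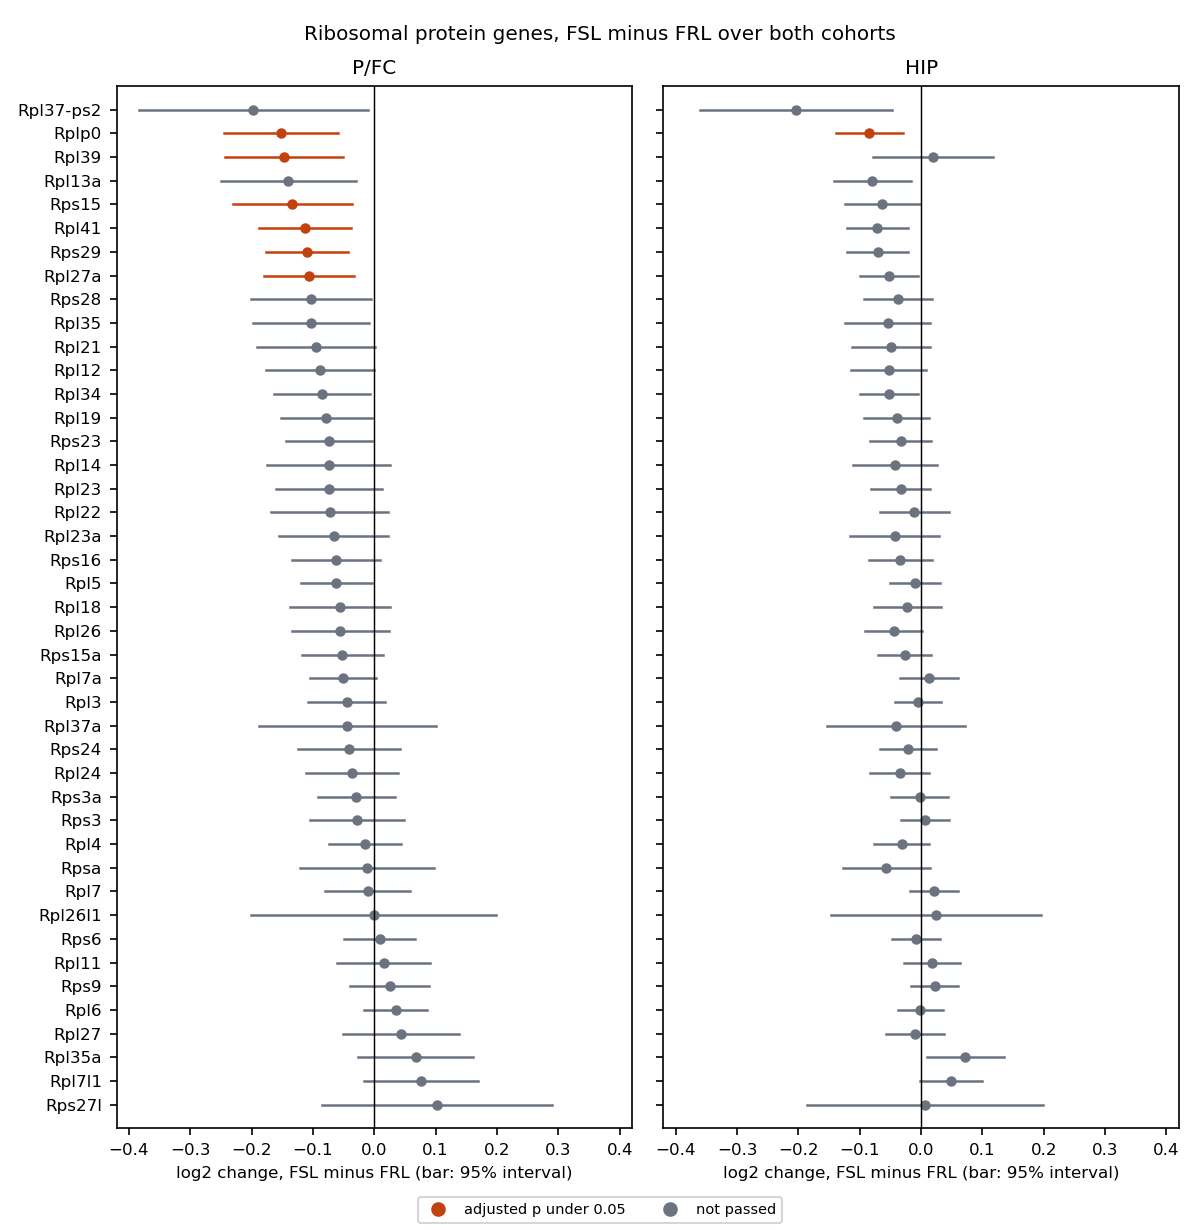
Each point is the log2 change of a ribosomal protein gene, FSL minus FRL over both cohorts, with its 95% interval, in P/FC (left) and HIP (right), ordered by the change in P/FC and coloured where the adjusted p was under 0.05. In P/FC 35 of 43 points lie below 0 and 6 were called, and in HIP 33 of 43 lie below 0 and Rplp0 alone was called.

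Rplp0 (probeset 1367560_at), the protein that forms the base of the large-subunit stalk and with it the landing site of the elongation factors, was the only member called lower in both regions. In cohort 1 its lowest, median and highest intensity were 1296, 1484 and 1622 in FSL P/FC, against 1289, 1605 and 1991 in FRL P/FC. In cohort 2 they were 1358, 1441 and 1509 in FSL P/FC, against 1405, 1601 and 1885 in FRL P/FC. The groups overlapped in both cohorts, although 8 of 9 and 8 of 8 FSL arrays lay below the FRL median. The log2 change was -0.15 (SE 0.05, limma adjusted p = 0.0166), a fall by 9.98%. It was -0.13 in cohort 1 (p = 0.0359, limma) and -0.17 in cohort 2 (p = 0.0158, limma), and Rplp0 was the only member to reach an unadjusted p under 0.05 with the same sign in each cohort. Across all kept probesets in P/FC 9.87% met that rule, 4.7% as lower. In HIP no member met it, beside 4.85% of all kept probesets.

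The other 5 genes called lower in FSL P/FC were named after their values had been seen. Rpl39 (probeset 1367934_at), a short protein at the mouth of the peptide exit tunnel, had lowest, median and highest intensities of 355, 385 and 448 in FSL P/FC, against 314, 428 and 516 in FRL P/FC in cohort 1. The values of cohort 2 were 293, 346 and 404 in FSL P/FC, against 345, 392 and 459 in FRL P/FC. Both cohorts had FSL arrays inside the FRL range and a lower FSL median. The change was -0.15 (SE 0.05, limma adjusted p = 0.0260).

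Rpl41 (probeset 1370866_at), the shortest protein of the ribosome, had lowest, median and highest intensities of 2221, 2323 and 2662 in FSL P/FC, against 2204, 2582 and 2994 in FRL P/FC in cohort 1. The cohort 2 values were 2172, 2319 and 2464 in FSL P/FC, against 2287, 2548 and 2794 in FRL P/FC. The highest FRL arrays stood above every FSL array in each cohort, while the lower ends overlapped. The change was -0.11 (SE 0.04, limma adjusted p = 0.0269). Rpl27a (probeset 1371344_at), a core protein of the large subunit, had 3180, 3545 and 3799 in FSL P/FC, against 3244, 3648 and 4298 in FRL P/FC in cohort 1, and 3109, 3434 and 3885 in FSL P/FC, against 3442, 3757 and 4216 in FRL P/FC in cohort 2. Its change was -0.11 (SE 0.04, limma adjusted p = 0.0345), with overlapping groups in both cohorts.

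Rps15 (probeset 1386874_at), a small-subunit protein also needed for the export of small-subunit precursors out of the nucleus, had lowest, median and highest intensities of 1558, 1789 and 2047 in FSL P/FC, against 1608, 1824 and 2262 in FRL P/FC in cohort 1. In cohort 2 they were 1447, 1658 and 2132 in FSL P/FC, against 1764, 1887 and 2204 in FRL P/FC. In cohort 2 most FSL arrays lay below the lowest FRL array, and a single FSL array stood among the high FRL ones. The change over both cohorts was -0.13 (SE 0.05, limma adjusted p = 0.0451). Rps29 (probeset 1387890_at), a zinc-binding protein in the head of the small subunit, had 4059, 4278 and 4657 in FSL P/FC, against 4081, 4504 and 5316 in FRL P/FC in cohort 1. In cohort 2 it had 3689, 3901 and 4486 in FSL P/FC, against 3928, 4415 and 4639 in FRL P/FC. The groups overlapped, and the change was -0.11 (SE 0.03, limma adjusted p = 0.0166).

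**Figure D2:**
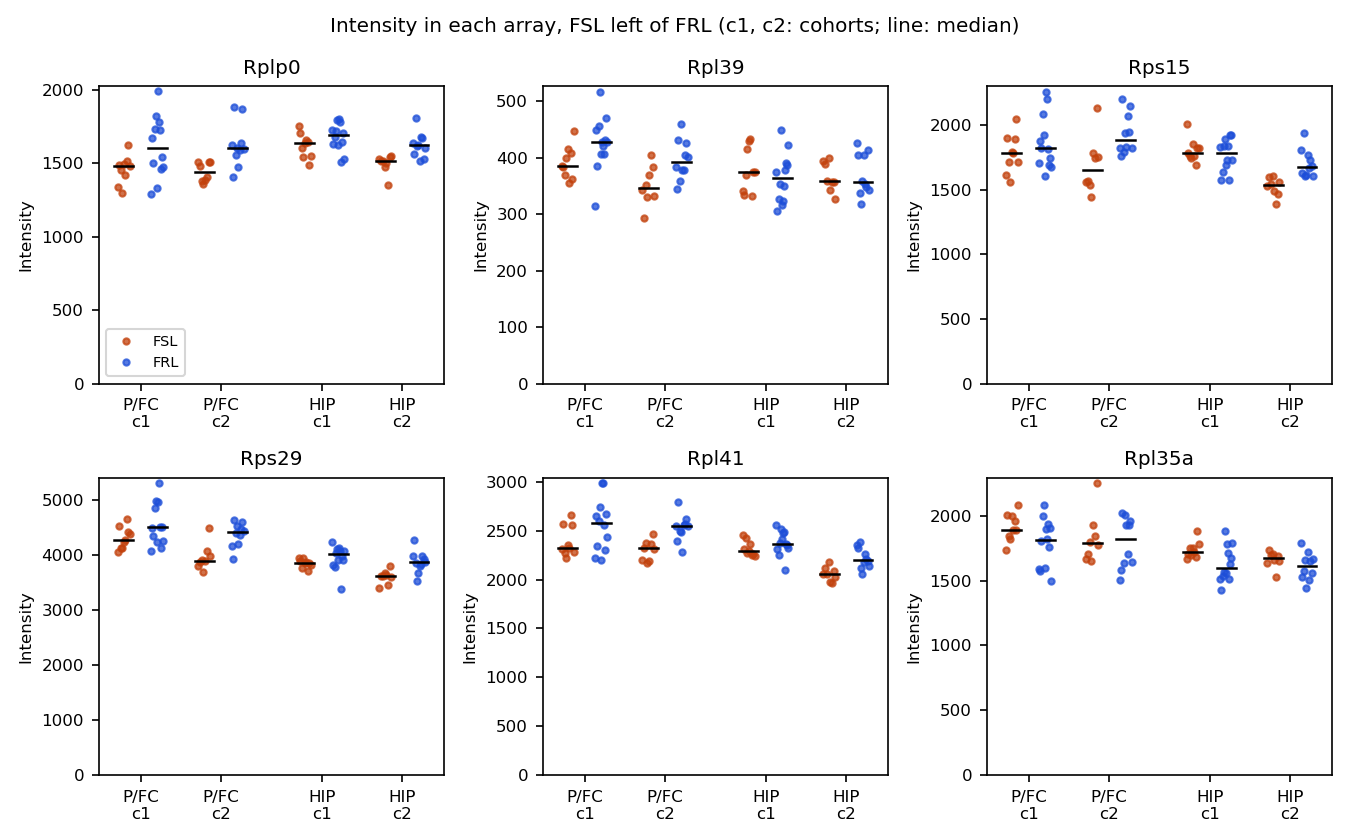
Each point is the intensity (linear scale) of 1 array for Rplp0, Rpl39, Rps15, Rps29, Rpl41 and Rpl35a, with FSL left of FRL for each region and cohort (c1, c2) and a line at the median. FSL medians lie below FRL medians for the first 5 genes in both P/FC cohorts, the groups overlap in every panel, and Rpl35a has higher FSL medians in both HIP cohorts and in cohort 1 of P/FC.

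By subunit, 4 of 27 large-subunit genes (14.8%) and 2 of 12 small-subunit genes (16.7%) were called lower in FSL P/FC, with median changes of -0.07 and -0.05. Both shares lay between the 8.86% of all kept probesets and the 17.2% of the bright ones called lower. These counts are not a result about either subunit. Of the 4 paralogs and pseudogenes that passed the filter none was called. Beside Rps29, the brightest probesets had negative changes that did not pass: Rps23, a protein of the decoding centre, had -0.07 (limma adjusted p = 0.130), Rpl19 had -0.08 (adjusted p = 0.136), Rps16 had -0.06 (adjusted p = 0.229) and Rpl3, which reaches towards the peptidyl transferase centre, had -0.05 (adjusted p = 0.331). Rps6, the substrate of the S6 kinases, had a change of 0.01 (limma adjusted p = 0.869). Rpl5 and Rpl11, which together bind the 5S RNA and Mdm2, had changes of -0.06 (adjusted p = 0.127) and 0.02 (adjusted p = 0.825).

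Rpl35a (probeset 1398760_at), a large-subunit protein, stood on the positive side in both regions without passing the test. In cohort 1 its lowest, median and highest intensity were 1738, 1893 and 2086 in FSL P/FC, against 1496, 1813 and 2081 in FRL P/FC. The values of cohort 2 were 1655, 1787 and 2255 in FSL P/FC, against 1509, 1818 and 2021 in FRL P/FC. In cohort 1 4 of 12 FRL arrays and in cohort 2 4 of 10 lay below every FSL array, 1 FSL array in each cohort lay above every FRL array, and the rest overlapped. The change was 0.07 (limma adjusted p = 0.334). Of the 43 changes in P/FC, 35 had a 95% interval inside -0.2 to 0.2, and the median SE was 0.04.

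Markers of other cell types and the RNA integrity ratios also differed between the lines. The mean log2 intensity of the 5 astrocyte markers was 9.79 to 10.23 in FSL P/FC and 9.90 to 10.55 in FRL P/FC in cohort 1, and 9.93 to 10.14 in FSL P/FC and 9.94 to 10.60 in FRL P/FC in cohort 2. The median change of these 5 markers in FSL P/FC was -0.27. With their mean as a covariate, a setting chosen after the data had been seen, none of the members was called in P/FC, beside 1.55% of all kept probesets, and their median change was 0.045. With the Gapdh ratio as a covariate none of the members was called in P/FC and 3.81% of all kept probesets were, and the members' median was -0.02. With the Actb ratio 1 member was called, beside 13.2% of all kept probesets. Of the endothelial markers 3 of 5 (Tek, Cldn5 and Vwf) were called lower in FSL P/FC and 1 of 5 (Cldn5) in FSL HIP, and all 17 FSL P/FC arrays lay below the FRL median of their mean. That mean ranged between 6.48 and 6.93 in FSL P/FC and between 6.60 and 7.30 in FRL P/FC in cohort 1, and between 6.52 and 6.99 in FSL P/FC and between 6.62 and 7.40 in FRL P/FC in cohort 2. Of 4 microglial markers that passed the filter, 2 (Csf1r and Ctss) were called lower in FSL P/FC and 1 (Ctss) in FSL HIP, while the mean of the 5 listed ranged between 7.002 and 7.24 in FSL P/FC and between 6.75 and 7.36 in FRL P/FC in cohort 1, and between 7.05 and 7.28 in FSL P/FC and between 6.78 and 7.38 in FRL P/FC in cohort 2. Below the FRL median of this microglial mean lay 7 of 17 FSL arrays in P/FC and 3 of 17 in HIP. In cohort 2 it was 0 of 8 in each region. Cx3cr1, another microglial marker, had a positive change of 0.08 in FSL HIP that did not pass. All 6 striatal neuron markers had a positive change in FSL P/FC, and 1 was called higher, beside 9.76% of all kept probesets. Their median change was 0.55, with 1.07 in cohort 1 and 0.095 in cohort 2. In FSL HIP 4 of these markers had a positive and 2 a negative change, and none was called. The part of endothelial, microglial and striatal RNA in the members' changes was not tested. Among the settings apart from these covariates, Rps15 was not called without the filter on dim probesets (limma adjusted p = 0.0608), Rps29 with quantile normalization (0.116) or Rpl39 with each array centred on its median (0.0596). Counting all alternatives, covariates included, Rps15 lost its call in P/FC in 5. Rpl39 lost its call in 4 with the same sign and in 1 more with the opposite sign. Rps29 lost its call in 4 and Rpl41 in 3. Rpl27a lost its call in 2 and Rplp0 in 1 with the same sign, and each in 1 more with the opposite sign.

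**Figure D3:**
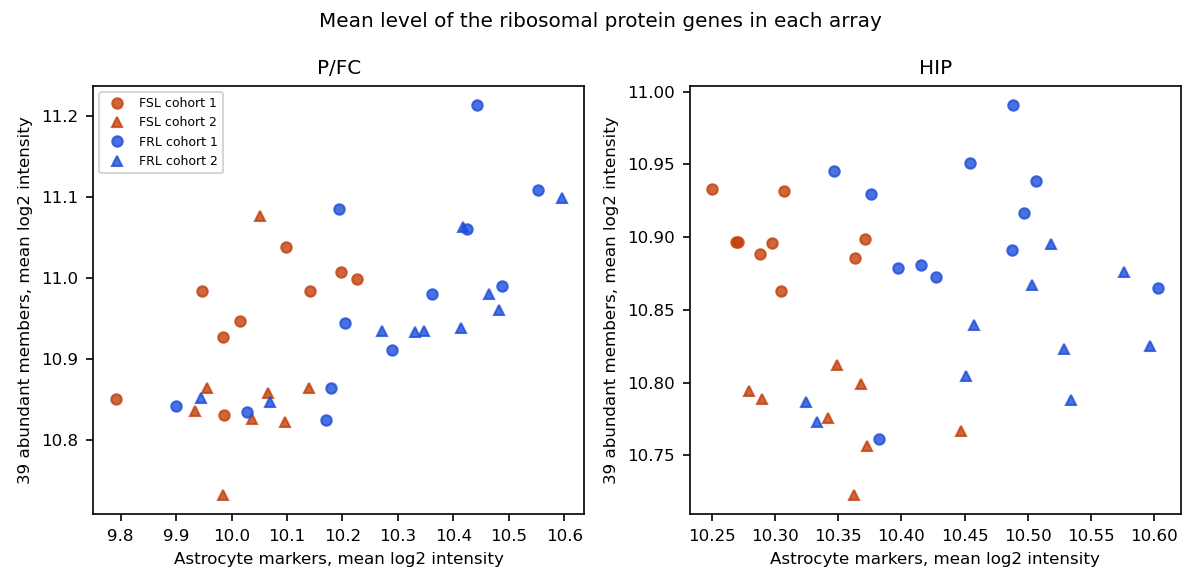
Each point is 1 array, with the mean log2 intensity of the 5 astrocyte markers on the horizontal axis and that of the 39 abundant ribosomal protein genes on the vertical axis, in P/FC (left) and HIP (right). FSL arrays lie mostly towards the left in both regions, and in P/FC arrays with a lower astrocyte mean also have a lower ribosomal protein mean (r = 0.68 over 39 arrays after the means of line and cohort were taken out), while in HIP that r was 0.20.

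The same comparison in HIP gave 1 call. Rplp0 was lower in FSL HIP, none of the 43 members was called higher and 42 did not pass, a share of 2.33% against 7.33% of all 21630 kept probesets and 14% of the bright ones. Of all kept probesets 4.13% were called lower and 3.2% higher. Of the 43 members, 33 had a negative change and 10 a positive one, with a median of -0.03 (-2.27%) and a range of -0.20 to 0.07, against 0.00 for all kept probesets. At an unadjusted p under 0.05, 14 members differed in P/FC, where 31.8% of all kept probesets did, and 9 in HIP, where 21.1% did.

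In cohort 1 the lowest, median and highest intensity of Rplp0 were 1490, 1640 and 1755 in FSL HIP, against 1511, 1692 and 1802 in FRL HIP. In cohort 2 they were 1355, 1515 and 1546 in FSL HIP, against 1512, 1621 and 1805 in FRL HIP. The groups overlapped in both cohorts, and in cohort 2 the FSL arrays stood in the low end of the FRL range or below it. The change was -0.08 (SE 0.03, limma adjusted p = 0.0473), with -0.05 in cohort 1 and -0.12 in cohort 2. It was no longer called without the filter on dim probesets (adjusted p = 0.0654), with each array centred on its median (0.10), with the Gapdh ratio (0.15), the Actb ratio (0.511) or the astrocyte mean (0.423) as a covariate, and without FSL cohort 2 replicate 6, its lowest array. No member was called in HIP in 25 of the 39 fits that left out 1 array each.

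The other genes called in P/FC were not called in HIP. Rps29 had a change of -0.07 (limma adjusted p = 0.0688) in FSL HIP, Rpl41 had -0.07 (adjusted p = 0.0648), Rps15 had -0.06 (adjusted p = 0.214) and Rpl27a had -0.05 (adjusted p = 0.186). Rpl39 had 0.02 (adjusted p = 0.875), with lowest, median and highest intensities of 332, 374 and 433 in FSL HIP, against 305, 364 and 450 in FRL HIP in cohort 1, and 327, 358 and 399 in FSL HIP, against 318, 357 and 425 in FRL HIP in cohort 2. Its groups lay on top of each other in HIP. Rpl13a, which is often used as a reference gene in quantitative PCR, had -0.14 (adjusted p = 0.0656) in FSL P/FC and -0.08 (adjusted p = 0.111) in FSL HIP.

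In HIP, 42 of the 43 changes had a 95% interval inside -0.2 to 0.2, and the median SE was 0.02. The astrocyte markers ranged between 10.25 and 10.37 in FSL HIP and between 10.35 and 10.60 in FRL HIP in cohort 1, and between 10.28 and 10.45 in FSL HIP and between 10.32 and 10.60 in FRL HIP in cohort 2. With their mean as a covariate, the members' median in HIP was -0.01.

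The line change was then compared between the cohorts. In P/FC the members' median was -0.03 in cohort 1 and -0.09 in cohort 2. In cohort 1 28 members had a negative change and in cohort 2 39 had one, 27 were negative in both cohorts, 3 were positive in both, and 40 of 43 had a lower change in cohort 2 than in cohort 1. In HIP the median was -0.01 in cohort 1 and -0.06 in cohort 2, 22 members were negative in cohort 1 and 34 in cohort 2, and 34 of 43 had a lower change in cohort 2. Since the members varied together from array to array, these counts are not made of separate observations. None of the differences between the cohorts was called for any member or any other probeset (limma, adjusted p under 0.05, 0% of 21630 in HIP and of 22370 in P/FC). At an unadjusted p under 0.05, 1 member differed between the cohorts in P/FC and 4 in HIP, beside 4.63% and 4.33% of all kept probesets.

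Within single cohorts, no member was called in cohort 1 of either region or in cohort 2 of P/FC, where 2.36% (HIP, cohort 1), 7.8% (P/FC, cohort 1) and 3.78% (P/FC, cohort 2) of all kept probesets were. At an unadjusted p under 0.05, P/FC had 4 members in cohort 1, of which 2 were lower, and 15 in cohort 2, all lower. Of all kept probesets in P/FC 23.1% passed in cohort 1 (11.6% as lower) and 19.8% in cohort 2 (9.32% as lower). HIP had 3 members in cohort 1, of which 1 was lower, and 10 in cohort 2, all lower, beside 14.5% (8.04% as lower) and 13.8% (7.45% as lower) of all kept probesets.

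The 1 member called in cohort 2 of HIP was Rps15, beside 2.33% of all kept probesets. In that cohort its lowest, median and highest intensity were 1391, 1540 and 1609 in FSL HIP, against 1605, 1679 and 1938 in FRL HIP. All but 1 of the FSL arrays lay below every FRL array, and the change was -0.16 (limma adjusted p = 0.0394). No member was called in this cohort without the filter on dim probesets, with each array centred on its median, with the cohorts fitted separately, or with the Gapdh ratio, the Actb ratio, the astrocyte mean or the striatal marker mean as a covariate. In cohort 1 they were 1696, 1790 and 2012 in FSL HIP, against 1574, 1783 and 1927 in FRL HIP, and there the groups overlapped with the FSL median slightly above the FRL median. The difference between the cohorts had p = 0.00246 before adjustment and 1 after it (limma).

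Rps27l (probeset 1375268_at), a paralog of Rps27 that p53 activates in human cells, was dim and changed sign between the cohorts in both regions. In cohort 1 its lowest, median and highest intensity were 30.9, 37.4 and 55.6 in FSL P/FC, against 21.8, 29.7 and 46.5 in FRL P/FC. The cohort 2 values were 21.1, 29.3 and 47.5 in FSL P/FC, against 25.8, 33.0 and 40.8 in FRL P/FC. The log2 change was 0.35 in cohort 1 and -0.15 in cohort 2 of P/FC, and 0.25 in cohort 1 and -0.24 in cohort 2 of HIP. The difference between the cohorts had unadjusted p-values of 0.0101 in P/FC and 0.0148 in HIP (limma), and neither passed after adjustment. Many of its values lay near the filter of 30.

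Rpl37-ps2 (probeset 1381754_at), a pseudogene copy of Rpl37, had the most negative change in both regions without passing the test. In cohort 1 its lowest, median and highest intensity were 47.3, 72.7 and 86.3 in FSL P/FC, against 69.4, 98.8 and 120.4 in FRL P/FC. In cohort 2 they were 65.0, 83.3 and 105.7 in FSL P/FC, against 56.6, 89.6 and 118.4 in FRL P/FC. The FSL arrays were lower mainly in cohort 1, and the change over both cohorts was -0.20 in FSL P/FC (limma adjusted p = 0.131) and -0.20 in FSL HIP (adjusted p = 0.101). The other paralogs that passed the filter, Rpl7l1 and Rpl26l1, had changes of 0.08 and 0.00 in FSL P/FC and of 0.05 and 0.02 in FSL HIP, and none was called.

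**Figure D4:**
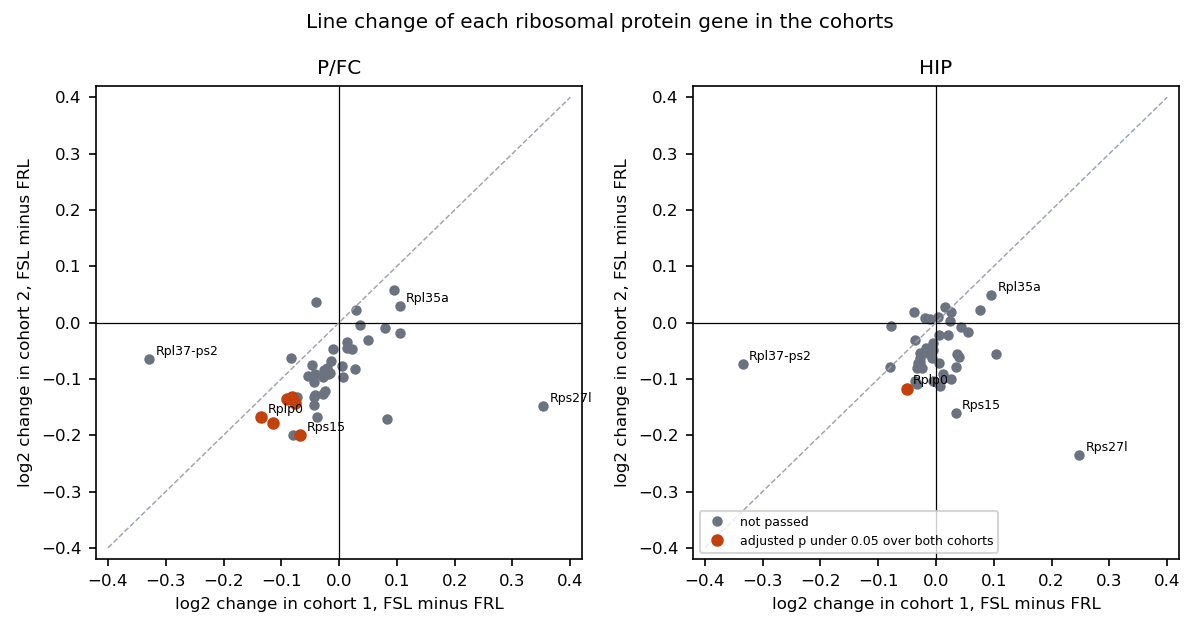
Each point is a ribosomal protein gene, with its log2 change (FSL minus FRL) in cohort 1 on the horizontal axis and in cohort 2 on the vertical axis, in P/FC (left) and HIP (right), and a dashed line of equal change. Most points lie below the dashed line (40 of 43 in P/FC and 34 of 43 in HIP), and Rps27l lies far to the right of the others with a negative change in cohort 2. The genes varied together from array to array, and no difference between the cohorts was called.

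Between the regions, the members' line changes had the same sign for 30 negative and 5 positive members and opposite signs for 8, and 34 of 43 were more negative in P/FC. None of the members differed between the regions in its line change after adjustment (limma, 0.0668% of 20963 probesets were called). Rpl39 was the only member with an unadjusted p under 0.05 for that difference (-0.17, SE 0.07, p = 0.0161, limma adjusted p = 0.504), which 7.94% of all probesets tested reached. The next were Rpl7a (-0.06, unadjusted limma p = 0.0542) and Rpl5 (-0.05, unadjusted limma p = 0.110).

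The levels themselves were compared between P/FC and HIP over both lines. Of the 43 members, 32 were higher in P/FC and 4 lower (limma, adjusted p under 0.05), while 69.6% of all probesets tested were called, 48.5% as higher and 21.1% as lower. The members' median difference was 0.10 and that of all probesets 0.08 on the log2 scale. Tissue from the regions was processed separately, so region and processing cannot be told apart, and both regions came from the same animals, whose pairing the labels do not give.

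Rps3 (probeset 1371299_at), a protein at the messenger RNA entry of the small subunit, ran against most other members. It averaged 1248 ± 121 in P/FC and 1823 ± 118 in HIP (SD, n = 39 each), and its 39 P/FC arrays (1066 to 1609) all lay below its 39 HIP arrays (1643 to 2007). The difference was -0.55 (SE 0.02, limma adjusted p = 6.4e-38). Of the 43 members Rps3 was the only one whose regions did not overlap, beside 2.95% of all probesets tested. Rps3 had no line change that passed the test, with -0.03 in P/FC (adjusted p = 0.660) and 0.01 in HIP (adjusted p = 0.895).

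The other 3 genes lower in P/FC differed by little. Rpl3 averaged 3955 ± 251 in P/FC and 4126 ± 149 in HIP (-0.06, limma adjusted p = 0.000586), and Rplp0 averaged 1544 ± 168 in P/FC and 1614 ± 104 in HIP (-0.07, adjusted p = 0.0127). Rps27l differed by -0.15 (adjusted p = 0.0418). On the other side Rps3a, a small-subunit protein near the exit of the messenger RNA, averaged 2883 ± 173 in P/FC and 2554 ± 104 in HIP (0.17, adjusted p = 2.15e-13). Rpl6 averaged 2658 ± 139 in P/FC and 2445 ± 86.8 in HIP (0.12, adjusted p = 2.95e-12), and Rps29 averaged 4334 ± 346 in P/FC and 3839 ± 210 in HIP (0.17, adjusted p = 3.61e-12). All of these values overlapped between the regions.

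**Figure D5:**
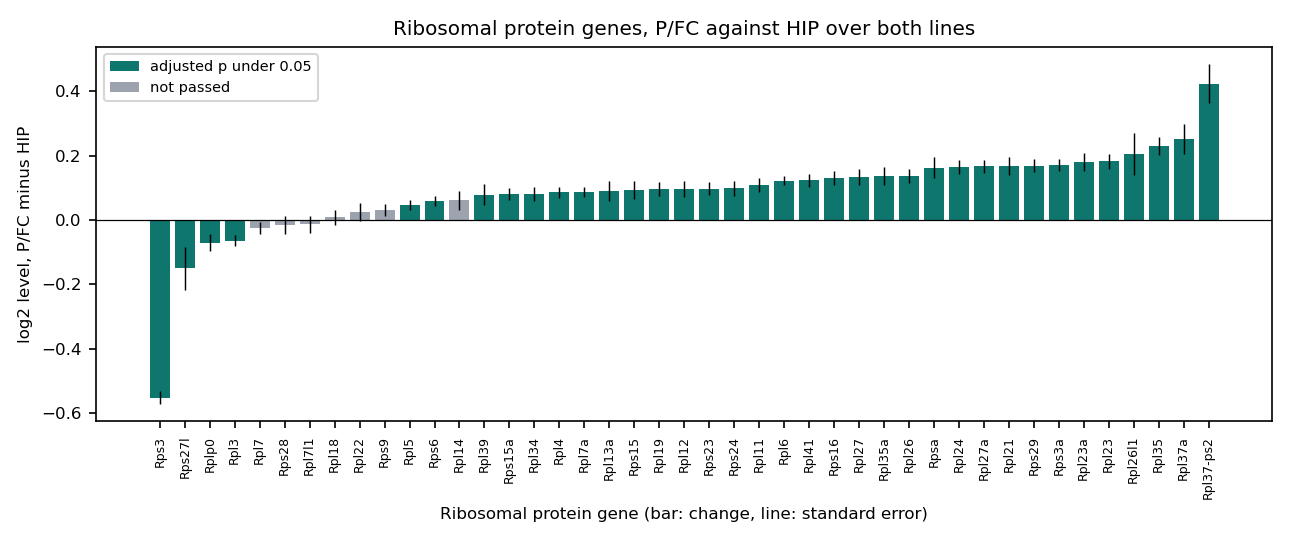
Each bar is the log2 difference of a ribosomal protein gene between the regions, P/FC minus HIP over both lines and cohorts, with its standard error as a line, coloured where the adjusted p was under 0.05. Of the 43 genes 32 are higher in P/FC and 4 lower, and Rps3 stands alone at -0.55.

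The members varied together from array to array. After the mean of each line and cohort was taken out, the mean correlation between pairs of members over 39 arrays was 0.59 in P/FC and 0.29 in HIP, against 0.01 for all kept probesets in each region. In P/FC 95.02% of the pairs had a positive correlation and in HIP 87.5%. These arrays share their normalization and labelling, and the correlations are given as a description. Most kept probesets are dimmer than the members, and no such mean was taken over the bright probesets alone. Against the mean of the other abundant members, 39 of 43 members had an r above 0.5 in P/FC and 25 in HIP, with medians of 0.85 and 0.55. Rpl7l1 ran the other way, with r = -0.61 in P/FC and -0.32 in HIP. Rpl39 was loosely tied to the rest, with 0.43 in P/FC and -0.09 in HIP.

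The spread of the members was wider in P/FC. The residual SD of the members within a line and cohort had a median of 0.11 on the log2 scale in P/FC and 0.07 in HIP, and that of the mean of the 39 abundant members was 0.10 in P/FC and 0.04 in HIP. For the 892 bright probesets the median residual SD was 0.10 in P/FC and 0.07 in HIP. The mean log2 level of the 39 abundant members had lowest, median and highest values of 10.83, 10.98 and 11.04 in FSL P/FC, against 10.82, 10.96 and 11.21 in FRL P/FC in cohort 1. In cohort 2 these were 10.73, 10.85 and 11.08 in FSL P/FC, against 10.85, 10.94 and 11.10 in FRL P/FC. In cohort 2 of P/FC 7 of 8 FSL arrays lay below the FRL median and 4 below every FRL array, and the highest FSL array stood apart from the other FSL arrays. In HIP the values were 10.86, 10.90 and 10.93 in FSL rats, against 10.76, 10.90 and 10.99 in FRL rats in cohort 1, and 10.72, 10.78 and 10.81 in FSL rats, against 10.77, 10.82 and 10.90 in FRL rats in cohort 2. In cohort 2 of HIP 8 of 8 FSL arrays lay below the FRL median and 3 below every FRL array, and in cohort 1 of both regions the groups overlapped more closely.

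Rack1, a scaffold protein of the small subunit whose symbol lies outside the rule, followed the members' mean with r = 0.92 in P/FC and 0.75 in HIP over 39 arrays. Its line change did not pass, with -0.05 in FSL P/FC (limma adjusted p = 0.370) and -0.02 in FSL HIP (adjusted p = 0.688). The members' mean also ran with the astrocyte mean (0.68 in P/FC and 0.20 in HIP) and against that of 5 neuronal markers (-0.67 in P/FC and -0.51 in HIP). Of these 5 markers, 3 were called higher in FSL P/FC and 2 in FSL HIP, while 2 had a negative change in each region. Of all kept probesets 9.76% were called higher in FSL P/FC and 3.2% in FSL HIP. For the endothelial markers r was 0.53 in P/FC and 0.47 in HIP, for the microglial markers 0.46 in P/FC and -0.31 in HIP, and for the Gapdh ratio 0.38 in P/FC and 0.41 in HIP.

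The tract at the start of the gene was set beside the line change for the 33 ribosomal proteins that passed the filter and had a promoter entry. In FSL P/FC the 22 genes with a tract, among them Rplp0, Rps15 and Rpl27a shown above, had a median change of -0.08, 20 were negative and 4 were called lower. The 11 genes without one, Rpl41 and Rps3 among them, had a median of -0.05, 9 were negative and 1 was called. In FSL HIP the medians were -0.04 with a tract and -0.02 without one, and the only call had a tract. Beside these counts, 8.86% of all kept probesets and 17.2% of the bright ones were called lower in P/FC, and 4.13% of all kept probesets in HIP. The members varied together from array to array, so their signs are not separate observations. The difference between genes with and without a tract was not tested, and nothing is read from these counts.

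Genes that work with the ribosome were taken from lists of known function. Of 73 mitochondrial ribosomal protein genes, 20 were called higher and 1 lower in FSL P/FC (median 0.09), and 6 were called higher and none lower in FSL HIP (median 0.03). Of all kept probesets 9.76% were called higher in FSL P/FC and 3.2% in FSL HIP. Their median was positive in both cohorts of P/FC (0.08 in cohort 1 and 0.09 in cohort 2), whereas in HIP it was 0.08 in cohort 1 and -0.02 in cohort 2. Mrps6 changed by 0.35 in FSL P/FC and 0.32 in FSL HIP, and Mrps2 by 0.34 in FSL P/FC and 0.28 in FSL HIP. Of 10 translation factors and other genes with such a tract, 2 were called lower in FSL P/FC, Eif3f (-0.13, limma adjusted p = 0.018) and Eef2, the factor that moves the ribosome along the messenger RNA (-0.11, adjusted p = 0.035), beside 8.86% of all kept probesets, and none in HIP.

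Of 20 genes of ribosome assembly, 2 were called higher in FSL P/FC: Nmd3, the export adaptor of the large subunit (0.20), and Fbl, the methyltransferase of ribosomal RNA (0.16). That is close to the 9.76% of all kept probesets called higher there, and is not a result about these genes. Nmd3 was also called higher in FSL HIP (0.19). Of 7 genes of RNA polymerase I and its factors, Polr1d, a subunit it shares with RNA polymerase III, was called higher in FSL P/FC (0.16) and in FSL HIP (0.13). Of 15 genes of mTOR signalling, 3 were called lower and 1 higher in FSL P/FC, and 3 were called lower in FSL HIP, beside 8.86% of all kept probesets called lower in P/FC and 4.13% in HIP. With so few genes in these lists nothing is read from their shares. Tsc2 and Tsc1, which together hold mTOR complex 1 in check, were called lower in both regions, with -0.25 and -0.15 in FSL P/FC and -0.16 and -0.14 in FSL HIP.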

How the data were processed

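RNA of the right hemisphere was labelled with the Affymetrix One-Cycle protocol and hybridised to Rat Genome 230 2.0 arrays, 78 in all. The deposited intensity values are on a linear scale and were normalized across arrays by the authors in Rosetta Resolver, a step whose settings are not given in the sources used here. Values under 1 were set to 1 and log2 was taken. A probeset was kept where it exceeded 30 in 50% or more of the arrays, counted for both lines. For each region, the 4 groups of line and cohort were fitted with limma 3.58.1 (R 4.3.3), and p-values were adjusted by Benjamini-Hochberg over all kept probesets. The study's model also held the batch of labelling, and without a label for it no such term was fitted. The labels call the arrays biological replicates, and both regions came from the same rats without a stated pairing. Their number limits the precision.

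Gene names came from the array annotation: 20826 probesets had 1 symbol, 436 several and 9780 none. Of the probesets of the 6 genes with several, none was called. By rule, the genes named in the text were those called over both cohorts and in each cohort, the brightest and dimmest, the paralogs and those of lowest p when cohorts and when regions were compared. Those called over both cohorts only were added after their values had been seen. The changes of Rpl35a, Rpl37-ps2, Rpl13a, Rps6 and Rpl11 were given outside this rule, with the values at hand. The fit was tested on simulated data. Promoters came from RefSeq and were read with Python 3.11.15. The members, the lists and the tests were chosen with earlier results of these data known. In some labels a bracketed line name differs from the title, and the groups follow the titles.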

Additional observations from a re-analysis of the deposited data

Results flagged for a closer look

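An array far from the others of its group was looked for in 126 searches, and 8 were found. The searches took 21 items, genes and the mean of the abundant members, through the same groups of arrays. The items vary together, so the count cannot be set against the share of about 1 in 20 for separate searches. The FRL groups of cohort 1, with 12 arrays each, were too large for this search and were left out. In FSL P/FC of cohort 2, replicate 7 was the highest array for Rpl19 (11.94 on the log2 scale, the next 11.72), Rpl5 (11.21, the next 11.07), Rps3a (11.67, the next 11.46), Rps27l (5.57, the next 4.92) and the mean of the abundant members (11.08, the next 10.86). These 5 values come from 1 array and are not separate. Without that array 7 members were called lower in FSL P/FC and their median change was -0.07.

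In FSL HIP of cohort 2, replicate 6 had the lowest Rplp0 (10.40, the next 10.52) and replicate 4 the highest Rpl7l1 (8.33, the next 8.25). Without replicate 6 no member was called in HIP. In FRL HIP of cohort 2, replicate 2 had the highest Rpl37a (10.22, the next 10.03).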

How the results depend on the processing

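The median change stayed negative in both regions under every alternative but 1: with the astrocyte mean as a covariate, chosen after the data had been seen, it was 0.045 in P/FC, where Rplp0 had 0.020, Rpl27a 0.0097 and Rpl39 0.0034. In P/FC the count of 6 became 0 with that covariate and with the Gapdh ratio and 1 with the Actb ratio, and the count of 0 in cohort 2 became 1 with a filter of 100. In HIP the count of 1 became 0 without a filter, with median centring, with cohorts fitted separately and with the Gapdh or Actb ratio, the astrocyte mean or the mean of the striatal neuron markers (also chosen after the data had been seen) as a covariate, 3 with a filter of 100 or plain analysis of variance, and 2 with the first residual component. In cohort 2 of HIP the count of 1 became 0 without a filter, with median centring, with cohorts fitted separately and with those 4 covariates, and 2 with a filter of 100 or plain analysis of variance, and in cohort 1 of HIP the count of 0 became 1 with the first residual component. The cause of the members' changes was not tested by any of these settings. Leaving out 1 array at a time gave counts of 4 to 7 in P/FC and 0 to 3 in HIP, and medians of -0.07 to -0.05 in P/FC and -0.04 to -0.03 in HIP. The HIP count was 0 in 25 of these 39 fits.

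The labels do not say whether replicate numbers pair FSL and FRL arrays, and the main fit treats arrays as independent. In P/FC, same-numbered arrays had a correlation over 0.1 in 4 of 9 (cohort 1) and 6 of 8 (cohort 2) pairs. In HIP this held for 5 of 9 and 3 of 8. The best-correlated FRL array bore the FSL array's own number in 1 of 9 and 4 of 8 cases in P/FC. In HIP it did so in 3 of 9 and 2 of 8. What the numbers stand for was not tested. With the replicate number as a block, HIP gave 2 calls over both cohorts, 1 in cohort 1 and 0 in cohort 2.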

Other observations

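Of the probesets that a ribosomal protein gene shared with other symbols, 35 passed the filter. In FSL P/FC their median was -0.06, with 5 (14.3%) called lower and none higher. There 8.86% of all kept probesets and 17.2% of the bright ones were called lower. In FSL HIP the median of the 35 was -0.04, with 3 (8.57%) called lower and none higher, beside 4.13% of all kept probesets. The probeset of Rps10l1, Rps10 and Rpl30 changed by -0.15 in P/FC (limma adjusted p = 0.00148) and -0.17 in HIP (6.58e-06). That of Rplp1 and other symbols changed by -0.15 in P/FC (0.005) and -0.07 in HIP (0.0462). Both were named after their values had been seen, and neither change can be tied to 1 gene.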
